A study of Mus musculus with 4 samples.

Results

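Yap1 and its partner Wwtr1, their target genes Cyr61 and Ctgf, and 5 genes of the regenerating gut lining (Clu, Anxa1, Sprr1a, Il1rn and Spp1) were followed across adenomas of ApcMin mice, labelled as colon tissue. These 9 genes were taken by their symbols from 17762 genes listed in at least 1 library, with earlier results of the same comparison known, so their levels are given as a description without a test. The series holds 2 libraries from mice labelled ApcMin Strap KO and 2 from mice labelled ApcMin Strap WT, all C57BL/6 and 110 days old, and all carrying the mutant Apc allele that gives these mice intestinal tumours. The series writes the knockout as StrapIEKO, and the labels name neither the deleted part of Strap, nor the driver of its deletion, nor the animals behind a library. Polyadenylated RNA was sequenced, and total expected counts (estimated numbers of read pairs per gene) lay between 14084814 and 15640931 per library. Strap had 300 and 364 expected counts in KO replicates 1 and 2, against 2445 and 1724 in WT replicates 1 and 2. With the edgeR quasi-likelihood test its adjusted p over 12769 genes was 0.0942 (log2 fold change -2.57, SE 0.26). With DESeq2 the adjusted p was 8.42e-14, over the 13269 genes for which DESeq2 gave one. In edgeR it was 0.0158 without WT replicate 2 (log2 fold change -2.79) and 0.0969 without WT replicate 1 (-2.32).

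The Hippo pathway is a kinase cascade in which the Mst kinases activate the Lats kinases, which phosphorylate the coactivators Yap1 and Taz (the product of Wwtr1) and keep them out of the nucleus. When they enter the nucleus they bind Tead factors and switch on targets such as Cyr61 and Ctgf. In the mouse intestine this program is best known from repair, when crypts lose their Lgr5 stem cells for a time and the lining takes on fetal-like traits, with Clu, Anxa1 and Ly6a among the genes used to recognise that state.

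Of the 9 genes, 8 were highest in 1 library, WT replicate 1, and were low in the other WT library as well as in both KO libraries. Clu stood at 3.6 and 2.13 FPKM in KO, against 590 and 6.01 FPKM in WT (FPKM are fragments scaled to transcript length and library size). Yap1 itself was level, at 23.2 and 27.4 FPKM in KO against 24.5 and 20.6 FPKM in WT. WT replicate 1 stood apart for many genes: 354 tested genes, 2.77%, were at least 4-fold higher there than in WT replicate 2, and 133 genes, 1.04%, at least 4-fold lower. Across genes, which are not independent replicates, log2 CPM of the KO replicates correlated at 0.961 and that of the WT replicates at 0.934. WT replicate 2 correlated at 0.936 and 0.933 with KO replicates 1 and 2, about as closely as with WT replicate 1. WT replicate 1 correlated at 0.903 and 0.911 with KO replicates 1 and 2, lower than any other pair of libraries. CPM are counts scaled to the library size with TMM factors. Because of this library, the change of each tested member is given with and without it.

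**Figure D1:**
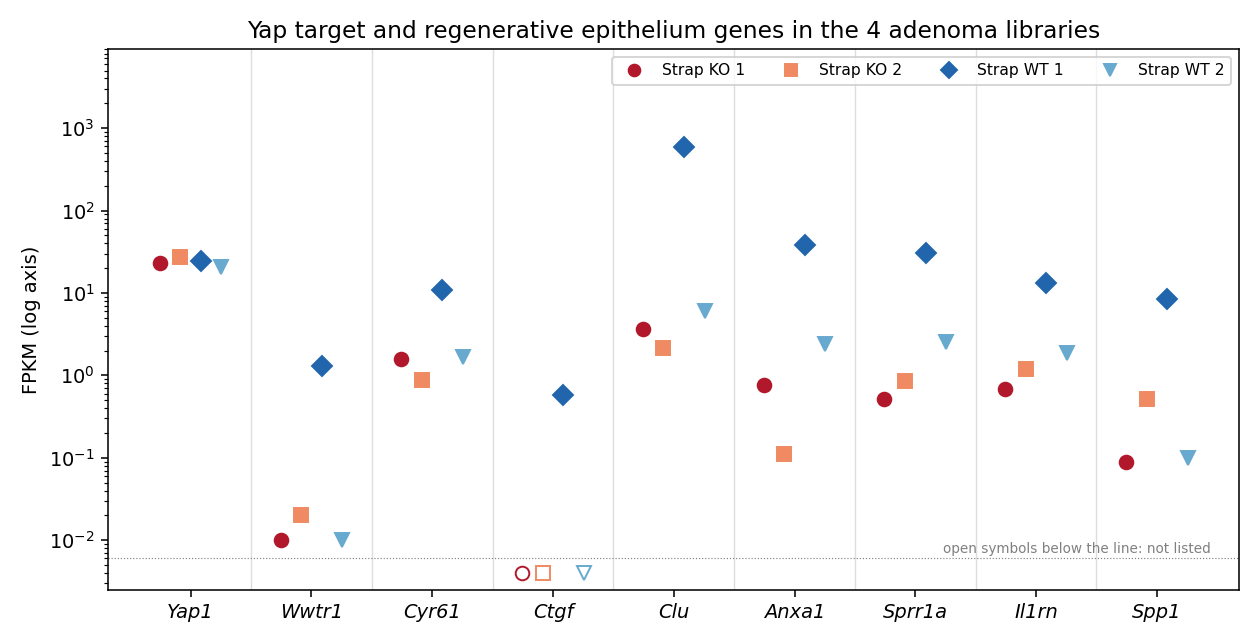
FPKM of the 9 genes on a log axis, 1 symbol per library, with KO replicates 1 and 2 left of WT replicates 1 and 2; open symbols below the dotted line mark a library in which the gene was not listed. Yap1 lies between 20.6 and 27.4 FPKM in all 4 libraries, while WT replicate 1 is the highest library for each of the other genes.

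The stretch upstream of the transcription start was read for the 7 genes with an entry in the RefSeq promoter table (build GRCm38.p6), and 250 bases before each start were searched on both strands for the Tead core CATTCC and its reverse complement GGAATG, and for the AP-1 site TGANTCA. Clu and Ctgf have no entry in that table. The Tead core was found in 5 of the 7 genes, Cyr61, Anxa1, Il1rn, Yap1 and Wwtr1. That made 6 of the 11 windows of the 7 genes, with 1 site in Wwtr1 counted in both of its overlapping windows; in all 32851 windows of the table the share was 12.6%. AP-1 sites were found in 2 of the 7 genes, Sprr1a with 2 sites and Il1rn with 1. That made 2 of the 11 windows, against 6.75% of all windows. Of all 27025 genes in the table, 3880 held the Tead core and 2113 an AP-1 site. In the Hippo, other target and regenerative lists described below, 29.2%, 31.2% and 11.1% of windows held the Tead core. For the AP-1 site these shares were 0%, 6.25% and 38.9%. Yap1, whose level did not follow the others, holds the same core, and Spp1 holds neither motif in its windows. Upstream sequences are printed for Cyr61, Anxa1, Sprr1a and Il1rn, 4 genes that were high in WT replicate 1 and hold a motif. Wwtr1, with a motif, and Spp1, with none, were high there too and are not printed in full. The choice of these 4 therefore does not show a motif shared by the genes high in that library. Capitals mark the Tead core in Cyr61 (chr3:145649986-145650235, minus strand, 98 to 103 bases before the start) and Anxa1 (chr19:20390672-20390921, minus strand, farther upstream). They mark the AP-1 sites in Sprr1a (chr3:92485882-92486131, minus strand) and in the first of 3 Il1rn windows (chr2:24336610-24336859, plus strand).
Cyr61: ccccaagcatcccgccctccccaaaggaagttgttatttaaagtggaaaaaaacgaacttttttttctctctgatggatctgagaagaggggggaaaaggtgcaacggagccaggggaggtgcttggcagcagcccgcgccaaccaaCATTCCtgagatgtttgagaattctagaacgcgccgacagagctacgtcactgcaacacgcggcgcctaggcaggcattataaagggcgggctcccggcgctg
Anxa1: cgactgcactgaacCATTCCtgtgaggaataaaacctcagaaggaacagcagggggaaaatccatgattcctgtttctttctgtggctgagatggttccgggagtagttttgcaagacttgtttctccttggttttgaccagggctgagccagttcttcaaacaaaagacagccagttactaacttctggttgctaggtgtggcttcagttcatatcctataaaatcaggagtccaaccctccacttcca
Sprr1a: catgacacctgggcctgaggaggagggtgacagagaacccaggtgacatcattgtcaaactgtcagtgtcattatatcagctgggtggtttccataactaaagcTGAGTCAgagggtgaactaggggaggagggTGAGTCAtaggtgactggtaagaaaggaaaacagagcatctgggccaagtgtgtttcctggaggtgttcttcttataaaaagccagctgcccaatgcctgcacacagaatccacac
Il1rn: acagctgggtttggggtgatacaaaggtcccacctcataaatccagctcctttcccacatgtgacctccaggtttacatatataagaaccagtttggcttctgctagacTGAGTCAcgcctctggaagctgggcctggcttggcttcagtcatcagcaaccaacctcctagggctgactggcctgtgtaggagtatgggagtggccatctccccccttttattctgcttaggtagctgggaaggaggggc
The Tead cores of the coactivator genes and of the third Il1rn window, with 10 bases on either side, are set out for comparison.
Yap1: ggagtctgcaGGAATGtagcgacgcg
Wwtr1: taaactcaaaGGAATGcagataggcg
Il1rn: acagtggaacGGAATGacagcagcac
The core is read on the reverse strand in these 3 windows. A match of these letters is a description of the sequence and no evidence of binding.

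Among the coactivators, Yap1 (chromosome 9, 7931999 to 8004638 in GRCm38.p6) was well expressed and evenly so. It had 1505 and 1596 expected counts in KO and 1562 and 1298 in WT, or 25.3 ± 2.98 FPKM in KO and 22.6 ± 2.81 FPKM in WT (SD, n = 2 each). The fitted log2 fold change was 0.20 (SE 0.20), and 0.31 without WT replicate 1. In CPM the 2 KO libraries were slightly above the 2 WT libraries, an order that 25.5% of the tested genes shared, while in FPKM the groups overlapped. Transcript level says nothing of the phosphorylation and location through which Yap1 is mostly controlled.

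Wwtr1 (chromosome 3, 57455644 to 57575910) differed from Yap1 in being close to absent outside WT replicate 1. It had 1 expected count in each KO library, against 94 and 1 in WT replicates 1 and 2, at 0.01 and 0.02 FPKM in KO and 1.29 and 0.01 FPKM in WT. It did not pass the filter on low counts, which asks for enough counts in at least 2 libraries. In FPKM, which are scaled to length, Wwtr1 was below Yap1 in every library, WT replicate 1 included.

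Of the CCN genes, which encode secreted proteins of the matrix around cells and are the most used readouts of Yap activity, Cyr61 (chromosome 3, 145646971 to 145649985) was measurable in every library. It stood at 1.56 and 0.87 FPKM in KO, against 11 and 1.67 FPKM in WT. KO replicate 1 and WT replicate 2 had 48 and 50 expected counts, so the groups overlapped in CPM (3.28 against 3.24). The fitted log2 fold change was -2.32 (SE 0.92) over all libraries and -0.42 without WT replicate 1. Ctgf (chromosome 10, 24595442 to 24598683) was listed in WT replicate 1 alone, with 21 expected counts and 0.58 FPKM, and did not pass the filter. Of the other CCN genes none passed the filter: Nov was listed in WT replicate 2 alone at 0.714 CPM, Wisp1 and Wisp3 were at most 0.321 CPM, and Wisp2 was listed in no library.

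Clu (chromosome 14, 65968483 to 65981548), which encodes the secreted chaperone clusterin and marks the damage-induced stem cells of the mouse gut, reached the highest level of the 9 genes in any library. Its expected counts were 100 and 53 in KO replicates 1 and 2, and 16135 and 162 in WT replicates 1 and 2. The WT libraries thus differed 98.1-fold in FPKM, and by log2 CPM this difference ranked 4 of 12769 tested genes. WT replicate 2 was above both KO libraries, by a smaller step (6.01 FPKM against 3.6 and 2.13). The fitted log2 fold change was -6.64 (SE 1.99), and -1.03 without WT replicate 1.

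Anxa1 (chromosome 19, 20373434 to 20390671) encodes annexin A1, a phospholipid-binding protein that restrains inflammation through formyl peptide receptors. It was at 0.76 and 0.11 FPKM in KO, against 38.5 and 2.37 FPKM in WT, with 16 and 2 expected counts in KO and 792 and 48 in WT. Both WT libraries were above both KO libraries, and of the 6 tested members with a negative change Anxa1 kept the lowest value without WT replicate 1 (log2 fold change -5.44, SE 1.52, over all libraries and -2.34 without it). The receptor genes Fpr1 and Fpr2 were at most 0.0681 CPM in any library.

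Sprr1a (chromosome 3, 92483954 to 92485881), which encodes a small proline-rich protein of the cornified envelope of squamous epithelia, was at 0.51 and 0.86 FPKM in KO, against 30.1 and 2.57 FPKM in WT. Il1rn (chromosome 2, 24336860 to 24351491), the gene of the interleukin 1 receptor antagonist, was at 0.69 and 1.21 FPKM in KO, against 13.2 and 1.88 FPKM in WT. In both genes the WT libraries were above the KO libraries, and WT replicate 2 was nearer to the KO libraries than to WT replicate 1. Their fitted log2 fold changes were -4.53 (SE 1.23) and -2.97 (SE 0.92), and -1.88 and -0.98 without WT replicate 1. The ligands that the antagonist competes with were near the limit of listing: Il1a and Il1b were at most 0.642 CPM, and the receptor gene Il1r1 reached 2.63 CPM in WT replicate 1 and at most 0.136 CPM elsewhere.

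Spp1 (chromosome 5, 104435111 to 104441053) encodes osteopontin, a secreted ligand of integrins and of Cd44. It was at 0.09 and 0.52 FPKM in KO, against 8.51 and 0.1 FPKM in WT, with 2 and 10 expected counts in KO and 180 and 2 in WT. The fitted log2 fold change was -3.81 (SE 1.80), and 1.58 without WT replicate 1, a value that rests on these few counts. Spp1 was the 1 tested member whose direction turned when that library was left out.

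For 4 of the 7 tested members, Clu, Anxa1, Sprr1a and Il1rn, each KO library had a lower CPM than each WT library, and 24.6% of all tested genes showed that order. Nothing is read from that count, since the members were chosen on this comparison. Without WT replicate 1 the fitted change was negative for 5 of the 7 tested members, all but Yap1 and Spp1. Of all 12769 tested genes, 6267 were negative in that fit. Nothing is read from this count of members either, for the same reason.

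**Figure D2:**
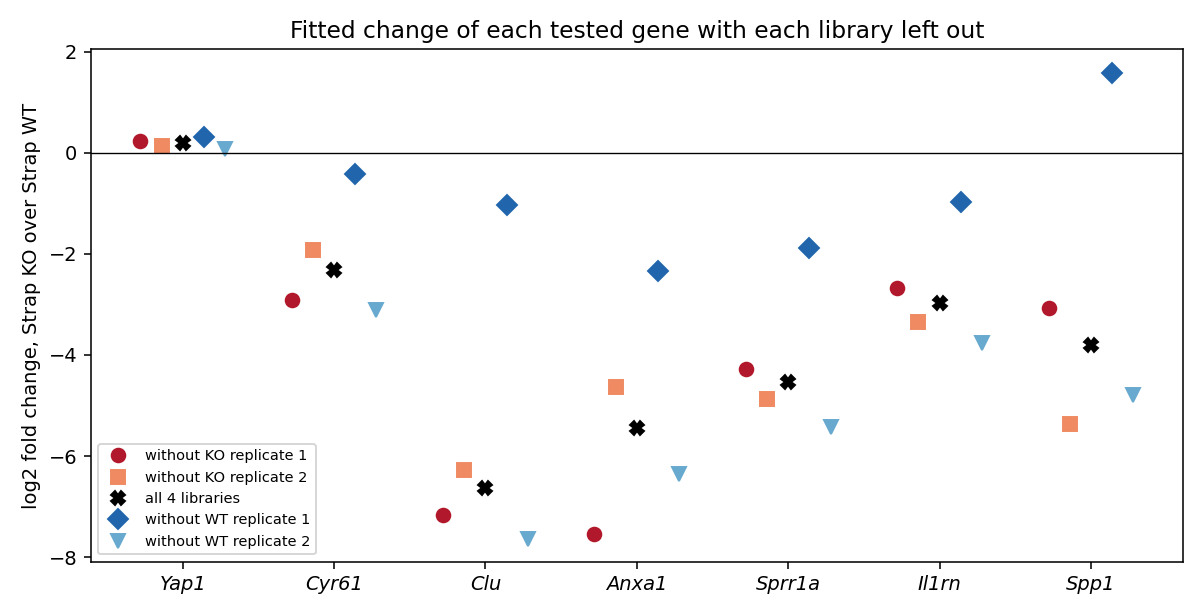
Fitted log2 fold change of KO over WT for the 7 tested genes, with all 4 libraries (cross) and with each library left out in turn. Without WT replicate 1 (diamonds) the values move toward 0 for Cyr61, Clu, Anxa1, Sprr1a and Il1rn, to 1.58 for Spp1, and Yap1 stays between 0.08 and 0.31.

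Differences between the WT libraries were not of one size. In log2 CPM, WT replicate 1 exceeded WT replicate 2 by 6.60 in Clu, 5.48 in Spp1, 3.97 in Anxa1, 3.47 in Sprr1a, 2.77 in Il1rn and 2.67 in Cyr61. These ranked from 4 to 186 among 12769 tested genes, and Yap1, with 0.25, ranked 3541. In the KO libraries, Spp1, Sprr1a and Il1rn were higher in KO replicate 2, and Clu, Anxa1 and Cyr61 in KO replicate 1. Some of these orders rest on few expected counts in KO replicates 1 and 2: 6 and 9 for Sprr1a, 2 and 10 for Spp1, and 16 and 2 for Anxa1. No division of the members is read from them.

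**Figure D3:**
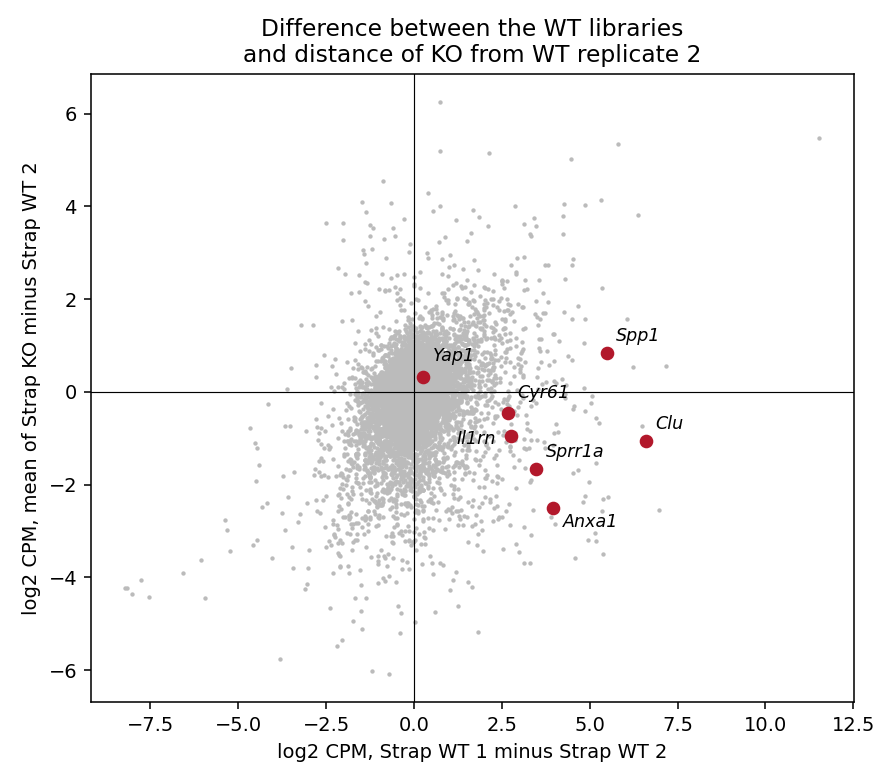
Each point is a tested gene; the horizontal axis gives log2 CPM of WT replicate 1 minus WT replicate 2, and the vertical axis the mean log2 CPM of the KO libraries minus WT replicate 2. The 6 labelled genes other than Yap1 lie between 2.67 and 6.60 on the horizontal axis, in the right tail of the cloud, where Cyr61 ranks 186 and Clu 4 of 12769 genes.

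The genes that act on Yap1 and Taz were read next. Of 25 genes of the Hippo pathway 23 were tested, with a median log2 fold change of -0.35, against 0.00 over all tested genes, and -0.33 without WT replicate 1. edgeR called 0 of them in either direction at an adjusted p under 0.05, where 0.00783% of all tested genes were called higher and 0% lower. By an unadjusted p under 0.05, 5 were lower and 0 higher, against 8.69% and 7.08% of all genes. On FPKM, limma called 0 of them and 0 of all tested genes, so its 0 for any list says nothing of that list. DESeq2 called 1 lower, against 3.26% of the genes it tested. That gene, Amotl1, whose product holds Yap1 at cell junctions, had 3 and 2 expected counts in KO and 269 and 84 in WT, and was chosen after its values were seen. Both WT libraries were far above both KO libraries in this gene.

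The core kinases were measured in every library. Stk3, an Mst kinase gene, was at 27.3 and 23.9 CPM in KO and 29.3 and 39 CPM in WT (log2 fold change -0.42, edgeR adjusted p = 0.445), and its paralog Stk4 at 71.2 and 88.8 against 74.1 and 71.8 CPM (0.13, 0.78). Lats1 was at 109 and 117 CPM in KO and 117 and 93.4 CPM in WT (0.10, 0.841), and Lats2, itself a target of Yap, at 4.44 and 12.1 against 12.9 and 12.6 CPM (-0.63, 0.578). Lats2 was low in KO replicate 1 alone, and its change was -0.08 without that library and -1.54 without KO replicate 2. Both KO libraries were below both WT libraries in Stk3, while the groups overlapped in Stk4 and Lats1. Sav1, the Mst scaffold gene, was below WT in both KO libraries, at 27.5 and 32.5 against 45 and 43.3 CPM (-0.56, 0.284), as were Mob1a (-0.54, 0.368) and Vgll4, which competes with Yap for Tead (-0.60, 0.352). Nf2, the gene of the upstream activator merlin, had a log2 fold change of 0.08 (edgeR adjusted p = 0.878). None of these differences passed the test, which does not show that the levels were equal.

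Among the Tead factors, Tead1 and Tead3 had the highest levels, at 3.96 to 6.36 FPKM and 11.9 to 17.1 FPKM, and their groups overlapped (log2 fold changes -0.15 and -0.15, edgeR adjusted p = 0.799 and 0.757). Tead2 was highest in WT replicate 1, with 2.19 and 1.36 CPM in KO and 10.1 and 3.37 CPM in WT (-1.92, adjusted p = 0.28, and -0.94 without WT replicate 1). Tead4 was low in every library, at most 2.27 CPM.

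A list of 20 further Yap and Tead targets, known mostly from human cancers, gave a median log2 fold change of -1.28 over its 13 tested genes and -0.62 without WT replicate 1. It shares Amotl2, Lats2 and Ptpn14 with the Hippo list. edgeR called 0 of the 13, although 5 had lower levels at an unadjusted p under 0.05, limma called 0, and DESeq2 called 2 lower, where 8.69% of all tested genes were lower by that p and 3.26% in DESeq2. These 2 were Myof, a membrane repair gene, and Rbms3, an RNA-binding protein gene chosen after its values were seen, with no listing and 1 expected count in KO and 92 and 13 in WT. Myof was at 8.47 and 8.86 CPM in KO and 41.8 and 19.7 CPM in WT (log2 fold change -1.83, SE 0.41, edgeR adjusted p = 0.195, and -1.20 without WT replicate 1). Asap1, a regulator of the cytoskeleton, had the same order at 9.29 and 13.9 against 40.5 and 19.4 CPM (-1.37, 0.26, and -0.76 without WT replicate 1). Nt5e, the gene of the ectonucleotidase CD73, was high in WT replicate 1 alone, at 0.888 and 4.23 CPM in KO and 82.2 and 2.66 CPM in WT, and its log2 fold change of -4.05 (0.297) became -0.07 without that library. Crim1 was highest in WT replicate 2, at 31.6 and 33.1 CPM in KO and 37.1 and 54.6 CPM in WT (-0.50, 0.381). WT replicate 1 was the highest library for 10 of the 13 genes, as it was for 16 of the 23 Hippo genes and for 28.8% of all tested genes.

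Further genes of the regenerative or fetal-like lining divided. Of 22 genes 18 were tested, with a median log2 fold change of -0.87, and -0.14 without WT replicate 1; WT replicate 1 was the highest library for 14. edgeR called 0 of the 18, although 8 had lower levels and 1 a higher level by an unadjusted p under 0.05 (8.69% and 7.08% of all tested genes), limma called 0, and DESeq2 called 3 lower (Basp1, Anxa8 and Plaur) and 1 higher (Ly6a), against 3.26% and 1.77% of all genes it tested. Plaur, the urokinase receptor gene, was chosen after its values were seen and was at 1.5 and 2.59 CPM in KO and 18 and 3.96 CPM in WT. Basp1 was at 0.751 and 0.204 CPM in KO and 35.5 and 3.96 CPM in WT (log2 fold change -5.35, edgeR adjusted p = 0.201, and -3.05 without WT replicate 1). Anxa8 was at 0.888 and 0.136 against 19.4 and 1.82 CPM (-4.35, 0.258, and -1.83 without WT replicate 1), and Anxa5 at 11.7 and 13.1 against 39.3 and 20 CPM (-1.26, 0.247, and -0.71 without WT replicate 1).

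Ly6a, the gene of the surface antigen Sca-1 and a common marker of the same regenerative state, ran the other way. It was at 46.9 and 34.8 CPM in KO, against 7.25 and 3.89 CPM in WT, so both KO libraries were above both WT libraries. Its log2 fold change was 2.87 (SE 0.38), with an adjusted p of 0.103 in edgeR and 1.04e-08 in DESeq2, and 3.37 without WT replicate 1 (edgeR adjusted p = 0.0991). Ly6a is also known as an interferon-induced gene and belongs to a family of similar genes between which reads can be split in estimated counts.

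**Figure D4:**
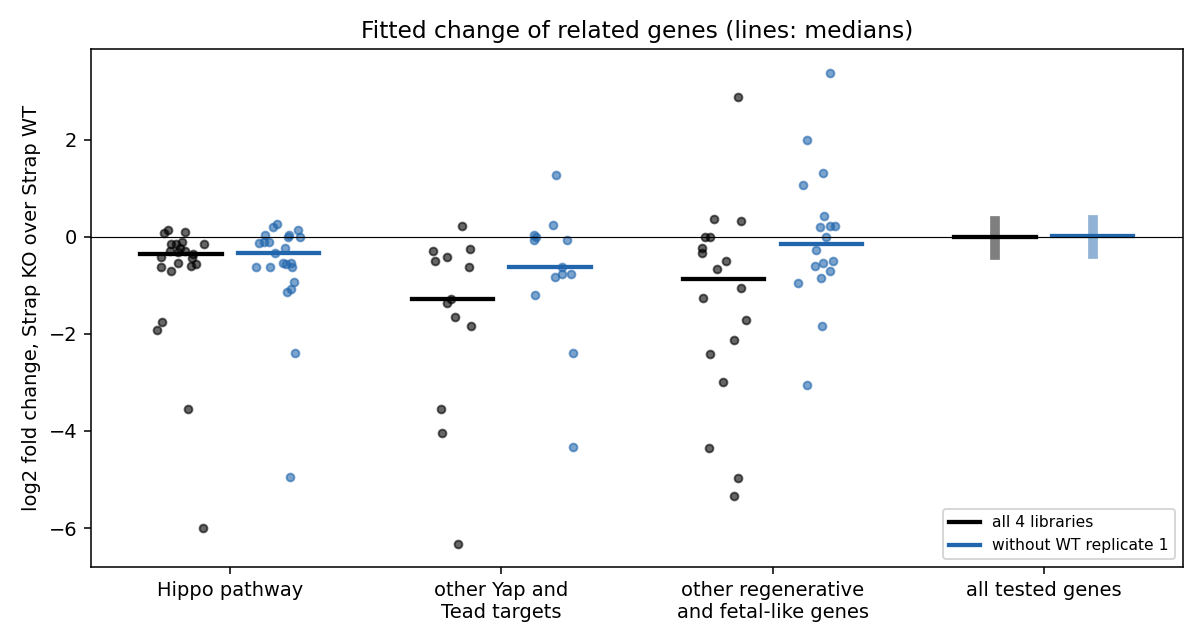
Fitted log2 fold change of KO over WT for each tested gene of 3 related lists, with all 4 libraries (black) and without WT replicate 1 (blue); lines are medians, and the bars for all tested genes span the quartiles. The medians are -0.35, -1.28 and -0.87 with all libraries, and -0.33, -0.62 and -0.14 without WT replicate 1.

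Relatives and partners of the members were set beside them. Of 13 tested genes among the other annexins, the formyl peptide receptors and the S100 partners, edgeR called 0 (2 lower by an unadjusted p under 0.05, against 8.69% of all tested genes), limma 0 and DESeq2 1 lower, against 3.26%. That 1 is Anxa8, already counted above, since Anxa2, Anxa3, Anxa5 and Anxa8 are in both lists. Their median log2 fold change was -0.47, and 0.24 without WT replicate 1. Anxa11 had a log2 fold change of -0.47 (edgeR adjusted p = 0.35), and Anxa10, an annexin gene expressed in stomach, was at 2.05 and 0.0681 CPM in KO and 34.3 and 0.324 CPM in WT (-4.02, 0.382), and its direction turned, to 1.66, without WT replicate 1. Of 16 other cornified envelope genes 3 were tested, Sprr2a1, Sprr2a2 and Sprr2a3, near-identical genes whose read split is uncertain. All 3 had lower levels in both KO libraries, for example 558 and 1489 CPM in KO against 3484 and 2073 CPM in WT for Sprr2a1 (-1.44, edgeR adjusted p = 0.298). edgeR and limma called 0 of them (3 lower by an unadjusted p under 0.05, against 8.69% of all tested genes) and DESeq2 called all 3 lower, against 3.26%. Sprr2a2 had a log2 fold change of -1.92 (edgeR adjusted p = 0.236) and Sprr2a3 of -2.14 (0.212), and the median of the 3 was -1.92, or -1.21 without WT replicate 1.

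None of 6 tested interleukin 1 family genes was called by edgeR, limma or DESeq2, and 1 was higher by an unadjusted p under 0.05, against 7.08% of all tested genes. Myd88, the adaptor of these receptors, was at 51.9 and 49.6 CPM in KO and 31.2 and 38.5 CPM in WT (0.54, edgeR adjusted p = 0.297). Il18bp, which neutralises interleukin 18, was at 9.15 and 11.9 CPM in KO and 3.98 and 6.55 CPM in WT (edgeR adjusted p = 0.327), and Il18 itself had a log2 fold change of 0.63 (0.517), with 43.4 and 37.1 CPM in KO and 37.5 and 14.7 CPM in WT. It was 1.44 without WT replicate 1 and 0.10 without WT replicate 2. Il1rap, the shared co-receptor gene, had one of -0.28 (0.713). The median of the 6 was 0.44, and 0.53 without WT replicate 1. Of 13 relatives and receptors of osteopontin, 9 were listed in at least 1 library and 6 were tested. None of these 6 was called by edgeR, limma or DESeq2, and 0 had an unadjusted p under 0.05 in edgeR. Over all tested genes edgeR called 1 and limma 0, and DESeq2 called 1.77% higher and 3.26% lower of those it tested. The unadjusted p in edgeR was under 0.05 for 7.08% higher and 8.69% lower. At these shares 0 of 6 genes called says little, here or for the interleukin 1 family. Cd44 was at 58.1 and 90.6 CPM in KO and 76.2 and 64 CPM in WT (0.09, edgeR adjusted p = 0.903). The integrin gene Itgav was at 17.4 and 21 CPM in KO and 68.7 and 20.6 CPM in WT (-1.22, 0.347, and -0.12 without WT replicate 1). Itgb5 (-0.50, 0.336), Itga5 (0.77, 0.342) and Itgb1 (-0.18, 0.743) did not pass either, and the median of the 6 was -0.15, or 0.07 without WT replicate 1. Of 3 tested genes tied to clusterin or to complement control, edgeR and limma called 0 (2 lower by an unadjusted p under 0.05, against 8.69% of all tested genes) and DESeq2 called 1 lower (against 3.26%), Vldlr, chosen after its values were seen, at 2.39 and 4.16 CPM in KO and 14.9 and 9.54 CPM in WT. Cd55 was at 34.8 and 35.2 CPM in KO and 56.8 and 52.6 CPM in WT (-0.64, edgeR adjusted p = 0.244), and the median of the 3 was -0.64, or -0.61 without WT replicate 1. Lrp8 was at 7.24 and 13.4 CPM in KO and 18.5 and 2.79 CPM in WT. Its log2 fold change of -0.04 (0.985) became 1.87 without WT replicate 1 and -0.84 without WT replicate 2.

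Markers of cell types were read in the same libraries, as summed CPM. The 8 epithelial markers summed to 14378 and 10915 CPM in KO and 12820 and 14446 CPM in WT. The 6 small-intestinal markers were high in every library (12308 and 11501 CPM in KO, 17907 and 7386 CPM in WT), while the 5 colon markers, among them Car1 and Aqp8, summed to at most 5.71 CPM, although the label is colon adenoma. The summed gastric and Brunner gland markers, like every member but Yap1, were highest in WT replicate 1. Their 7 genes summed to 0.205 and 1.57 CPM in KO, against 502 and 5.52 CPM in WT, of which Muc6 alone made up 404 CPM in WT replicate 1. All 7 were listed in both WT libraries, and Muc5ac, Tff2, Gkn1 and Gkn2 were listed in neither KO library. Squamous markers summed to 0.683 and 0.0681 CPM in KO and 24.4 and 1.69 CPM in WT. Krt6a had the highest level of them, 10.5 CPM in WT replicate 1, and Krt5 was at most 0.0642 CPM. Krt5, Krt13 and Trp63 were listed in neither KO library. Endothelial markers summed to 1.84 and 2.45 CPM in KO and 41.8 and 2.14 CPM in WT, of which Cdh5 alone made up 35.6 CPM in WT replicate 1, with Kdr and Emcn listed in neither KO library. The part of these cell types in the results was not tested.

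Markers of stroma and macrophages, cells in which Spp1, Wwtr1 and the CCN genes are expressed in many tissues, were low throughout. The fibroblast and smooth muscle sums were highest in WT replicate 1. Fibroblast markers summed to 7.31 and 9 CPM in KO and 15.5 and 9.93 CPM in WT, with all 8 listed in WT replicate 1 and 7 in each other library. Smooth muscle markers summed to 1.91 and 3.2 CPM in KO and 4.88 and 2.34 CPM in WT. Macrophage markers summed to 23.5 and 26 CPM in KO and 22.6 and 15.8 CPM in WT, with Cd14 alone at up to 19.8 CPM. Of these 8 markers, 4 were listed in KO replicate 1, 7 in WT replicate 2 and all 8 in KO replicate 2 and WT replicate 1. The macrophage sum therefore says little of the markers other than Cd14, and no order of the libraries in macrophage content is read from it. Neutrophil markers summed to at most 3.44 CPM, with S100a8, S100a9 and Retnlg listed in neither KO library. T and natural killer cell markers were highest in KO replicate 2 (29.7 and 274 CPM in KO, 50.1 and 34.6 CPM in WT), and B and plasma cell markers lay between 2.66 and 12.2 CPM. In bulk tissue, fewer cells of a type and less RNA per cell cannot be told apart.

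**Figure D5:**
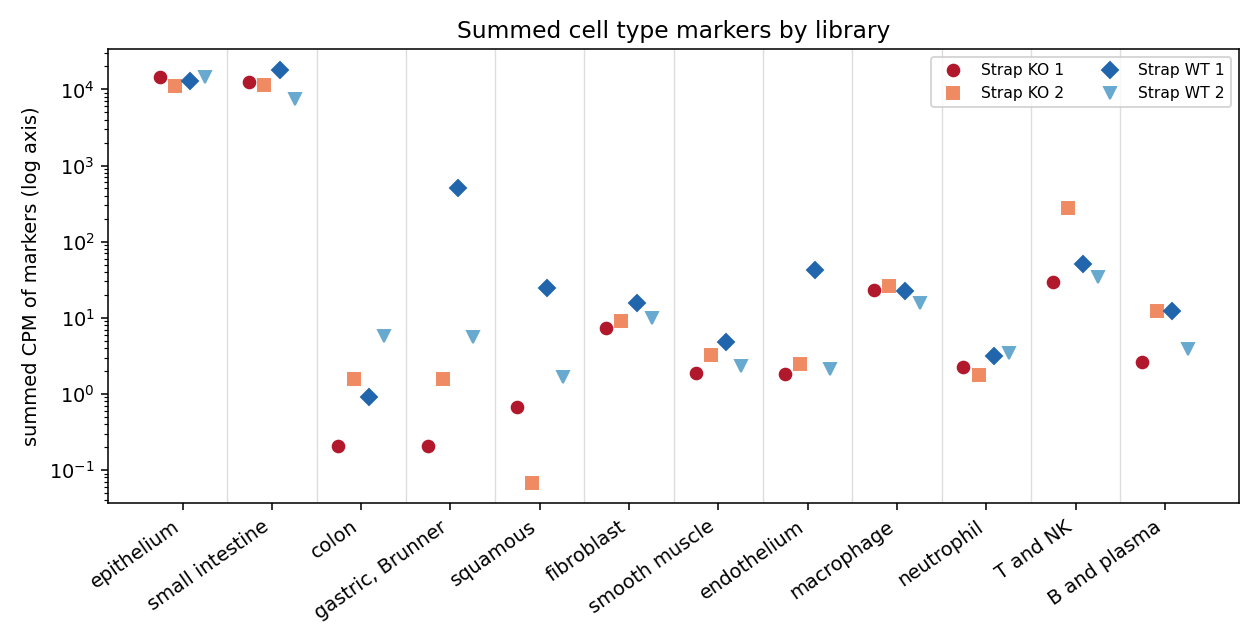
Summed CPM of cell type markers on a log axis, 1 symbol per library, with KO left of WT. Gastric and Brunner gland markers (502 CPM), squamous markers (24.4 CPM) and endothelial markers (41.8 CPM) are highest in WT replicate 1, as are fibroblast markers (15.5 CPM) and smooth muscle markers (4.88 CPM), at lower sums.

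The genes whose profile over the 4 libraries was most like that of a member were found by the root mean square difference of log2 CPM centred on each gene's mean, among tested genes with a mean of at least 1 FPKM. Nearest to Clu was Ctse, an aspartic protease gene (1.23 and 0.409 CPM in KO, 127 and 1.3 CPM in WT; difference 0.252), followed by Stra6 and S100g. Nearest to Anxa1 was Dkk3 (0.268), with Nkd1, a feedback inhibitor of Wnt signalling, and Basp1 next. Sprr1a was closest to Hif3a (0.129), Sema3f and Phldb2, Il1rn to Plk2 (0.090), Plekhs1 and Sox21, Cyr61 to Cfi (0.205) and Foxq1, and Spp1 to Nt5e (0.546), Ak4 and Trf. Yap1 had as neighbours Elovl6 (0.014), Cideb and Sec23b, genes as even as itself. Among the members the closest pair was Sprr1a and Il1rn (0.58), and Clu and Yap1 were farthest apart (3.22). These likenesses rest on 4 libraries, of which 1 differs from the rest.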

How the data were processed

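RNA of 4 adenoma libraries was read as 100-base pairs on a BGISEQ-500, per the labels' protocols. Bowtie2 2.2.5, RSEM 1.2.12 and the build mm10 are named per the submitters' processing notes, without role or order. The deposited tables hold 1 expected count for each gene, per the file headers. The authors' FPKM stand beside it, per the file headers; genes are listed from 0.01 FPKM, so a gene not listed is given no limit. Whether reads were counted by strand is not stated in these sources. The labels make no statement on separate animals, so a p-value here reflects variation among libraries that may be technical.

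Tables were joined on gene identifiers with pandas 2.3.3. In each library 1 row without a gene, with at most 0.000233% of the counts, was left out. Expected counts were rounded and genes not listed were taken as 0. The comparison of KO with WT used the quasi-likelihood test of edgeR 4.0.16 (R 4.3.3) with TMM scaling, genotype as the only term and filterByExpr, which left 12769 genes and 7 of the 9 members. The biological coefficient of variation was 32.5%. A gene was called where its p, adjusted by Benjamini and Hochberg over all tested genes, was under 0.05. SE is the fold change divided by the root of F. The fit was also run on simulated data, in which no library departed from its group as WT replicate 1 did. That run says nothing of such a library.

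Members and lists were chosen with earlier results of these data known. Named were all members, the 4 genes of each related list with the smallest p and a mean of at least 1 FPKM, core Hippo genes, receptors and ligands of members, and the 3 nearest profiles of each member, of which 1 is not reported here. Alternatives were DESeq2 1.42.0, limma 3.58.1 on log2(FPKM + 1) and log2(FPKM + 0.1), library size alone, DESeq2 size factors, a stricter filter (50 counts or more in 2 libraries) and none, a replicate block, and each library left out on the same 12769 genes. Leaving out a library leaves 1 in its group, assumed to vary like the other group. Promoters come from RefSeq, GRCm38.p6.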

Additional observations from a re-analysis of the deposited data

How the results depend on the processing

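Over all genes edgeR called 1, Ifi44, an interferon-induced gene chosen after its value was seen (log2 fold change 5.96), with 904 higher genes and 1109 lower ones by an unadjusted p under 0.05, against 0 with library size alone, 27 with no filter, 667 in DESeq2, 0 in limma on log2(FPKM + 1) and 0 on log2(FPKM + 0.1), and 0 to 174 with 1 library left out, of which the 174 came without WT replicate 2; the cause was not tested. The labels give KO and WT the same replicate numbers without saying what they share; deviations of same-numbered libraries correlated at -0.123. With the replicate block 116 genes were called, among them Strap, Ly6a, Basp1 and Anxa8, and with a crossed replicate block, chosen after seeing the data, 164. The replicate block put Clu at -4.52 and Spp1 at -2.20. With 1 library left out the log2 fold change ranged from -7.63 to -1.03 for Clu, -7.54 to -2.34 for Anxa1, -5.42 to -1.88 for Sprr1a, -3.12 to -0.42 for Cyr61, -3.77 to -0.98 for Il1rn and -5.36 to 1.58 for Spp1. The value nearest 0, or above it for Spp1, was the one without WT replicate 1 in each case. On log2(FPKM + 1), where the pseudocount shrinks low genes, the log2 fold change was -4.08 for Clu, -3.04 for Anxa1, -2.65 for Sprr1a, -1.72 for Il1rn, -1.37 for Cyr61 and -1.33 for Spp1. The other Yap and Tead targets had a median of -0.60 with at least 50 counts in at least 2 libraries, where fewer genes are tested, and -0.37 on log2(FPKM + 1). Anxa1, Sprr1a and Spp1 did not pass the filter of 50 counts. Without WT replicate 2, where WT replicate 1 alone stands for WT, the log2 fold change was -7.63 for Clu and -6.35 for Anxa1. It was -5.42 for Sprr1a and -3.77 for Il1rn in that fit. Among other named genes it was -2.79 for Strap, -2.27 for Myof, -5.00 for Nt5e and 2.49 for Ly6a. For Basp1, Sprr2a3 and Itgav it was -6.19, -2.71 and -1.84. The direction of Stk4, Lats1, Nf2, Tead1, Tead3 and Cd44 turned with 1 library left out, at values between -0.44 and 0.37. Medians of the Hippo, other target and regenerative lists stayed below 0 under every alternative run. The regenerative median was -0.14 without WT replicate 1, with 10 genes below 0 and 8 above. Counts of 1 or 2 in KO limit Spp1, Wwtr1 and Anxa1, and counts of 6 and 9 in KO limit Sprr1a.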
